A study of Homo sapiens with 36 samples.

Results

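The change with time in the transcriptional effect of AU2-94, a selective CDK4 inhibitor, was described in LNCaP cells, an established human prostate cancer line of luminal type that grows in response to androgen. The libraries were those of AU2-94 at 2 µM and of vehicle, each with 3 biological replicates after 24 h and 3 after 72 h of treatment, 12 of the 36 libraries of the series. All cells were LNCaP cells in 6-well plates, and the labels also give vehicle a dose of 2 µM. Fewer cells were seeded for the longer treatment, so time under drug and cell density cannot be told apart. The other groups, AU2-94 at 1 µM, atirmociclib (also selective for CDK4) at 1 and 2 µM and ribociclib (an inhibitor of CDK4 and CDK6) at 2 µM, were used to set the course of AU2-94 beside that of other agents. The effect of the drug is given as the log2 difference between treated and vehicle libraries of 1 time point, and the change of effect as the 72 h effect minus the 24 h effect. A positive change therefore means that treated cells moved up relative to vehicle between the harvests.

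Cyclin D with CDK4 phosphorylates RB, the retinoblastoma protein, which then releases E2F factors to transcribe the genes of DNA replication. Genes of G2 and mitosis are transcribed later in the cycle by the MuvB complex with B-MYB and FOXM1, at promoters that often carry a CHR element and CCAAT boxes bound by NF-Y. When CDK4 is inhibited in cells with RB, both sets of genes are known to be repressed. LNCaP cells also express androgen-induced genes such as KLK3, which encodes prostate-specific antigen. Separately, they express UGT2B enzymes, which inactivate androgens by glucuronidation.

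Total normalised counts ran from 20675156 to 21617499 in the 12 libraries, 20151 to 21405 genes were above 0, and mitochondrial genes held 6.34% to 7.43% of the total. Replicates correlated across genes at 0.9805 to 0.9841. Summed over 16 luminal markers, the levels were 144200 to 152300 normalised counts in vehicle and 191600 to 203900 in treated libraries, and 0 of the 16 were at or under 3 normalised counts, taken as the floor, in all 12 libraries. Basal markers summed to 112.3 to 256.4, with 3 of 8 at or under the floor in all 12 libraries. Stromal, endothelial and immune markers summed to 1187 to 1340 in the treated libraries at 72 h and to 803.8 to 1031 in the other 9, with 7 of 18 at or under the floor throughout. The part of these sums in the results was not tested.

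Genes that were lower with AU2-94 at 24 h often lost much of that difference by 72 h, whereas few genes that were higher at 24 h had a change that was called. Of 16850 genes tested, 501 (2.97%) had a change of effect called toward higher and 92 (0.546%) toward lower, where a call needed an adjusted p of at most 0.05 and a log2 difference of at least 1. On the adjusted p alone the numbers were nearly equal, 1561 (9.26%) higher and 1563 (9.28%) lower, and the median change over all genes was 0.0055. Calls toward higher thus made up 84.5% of calls, and 72.1% under quantile normalisation (411 higher, 159 lower). With a filter on a mean of at least 100 normalised counts, 283 were higher and 28 lower.

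At 24 h, 351 genes (2.08%) were called higher and 552 (3.28%) lower with AU2-94, and at 72 h 511 (3.03%) were called higher and 145 (0.861%) lower. Of the 552 lower at 24 h, 252 had a change called toward higher, 0 had one called toward lower, and 60 were also called lower at 72 h. Their median effect went from -1.57 to -0.47. Of the 351 higher at 24 h, only 39 had a change called toward lower and 135 were also called higher at 72 h, with a median effect of 1.48 and then 0.91. The choice of these genes by their 24 h effect, which also enters the change with the opposite sign, in part fixes this direction. Genes chosen at 72 h ran the other way, with a median of 0.58 and then 1.45 in the 511 called higher, of which 125 had a change called toward higher and 1 toward lower. The 145 called lower at 72 h went from -0.84 to -1.36, with 28 changes called toward lower and 23 toward higher. Across all genes the 24 h and 72 h effects, which share no library, had a Pearson r of 0.373 and a Spearman correlation of 0.340, given as a description since genes are not independent replicates.

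The 593 genes called in the change were sorted into courses by their effects at each time. The largest class held 273 genes that were lower at 24 h and whose difference then shrank, and 45 genes were higher at 24 h and lost that difference. In 54 genes the sign went from lower to higher and in 9 from higher to lower, past the adjusted p at both times. Another 144 genes were higher at 72 h without having passed the adjusted p in that direction at 24 h, 29 were lower at 72 h in the same way, and 14 were higher at both times with a larger difference at 72 h. The remaining 25 passed the adjusted p in the change but fell in no course. These classes were cut from the same values that describe them, so their medians carry no test. Whether treated and vehicle libraries overlap in a gene named for its class is also in part fixed by that choice.

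**Figure D1:**
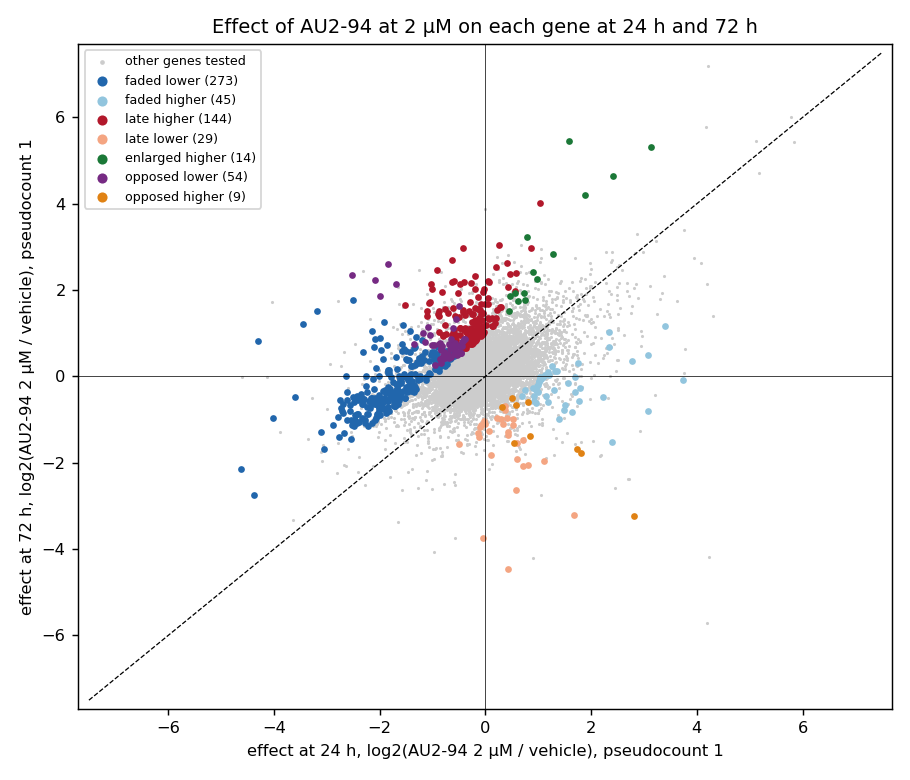
Effect of AU2-94 at 2 µM on each of the 16850 genes tested, as the log2 difference from vehicle at 24 h (horizontal axis) and at 72 h (vertical axis), with genes called in the change coloured by course and all others grey. The 273 genes that were lower at 24 h and shrank toward 0 lie in the left part near the horizontal zero line, and the 54 genes that turned from lower to higher lie in the upper left quadrant.

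Mitotic genes were 67 of the 273 genes that were lower at 24 h and faded, of which 158 were in none of the 24 lists. All 85 genes of a list of G2 and mitosis genes were tested. A change past the adjusted p was found toward higher in 78 (91.8%) and toward lower in 0. Over all genes tested these shares were 9.26% and 9.28%. Of the 85, 67 were called. The median effect of the list was -1.85 at 24 h and -0.52 at 72 h, against medians of 0.003 and 0.001 over all genes tested. The effect still stood at 72 h, since 70 members remained lower than vehicle past the adjusted p, after 83 at 24 h. Over all genes, 15.6% were lower past the adjusted p at 24 h and 15.6% at 72 h, and 15.7% and 14% were higher. In RNA from a whole well, fewer cells in a phase of the cycle and less RNA per cell cannot be told apart.

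PIF1 encodes a DNA helicase that unwinds G-quadruplexes and acts at telomeres and replication forks. Among genes that faded and had a mean of at least 50 normalised counts, PIF1 had the largest change. It stood at 270, 322 and 329 normalised counts in vehicle and at 22.6, 22.8 and 28.2 with AU2-94 at 24 h. At 72 h the values were 327, 274 and 214 in vehicle and 192, 182 and 198 with AU2-94. Treated and vehicle libraries did not overlap at either time, but the treated level rose from 7.99% to 70.2% of the vehicle mean. The change of effect was 3.11 ± 0.45 (log2, SE, adjusted p = 5.65e-06), from -3.59 to -0.49, and the 72 h effect did not pass the test (adjusted p = 0.26). PIF1 lies on the minus strand of chromosome 15 at 64815632 to 64825668 (GRCh38).

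PLK1, the kinase that drives centrosome maturation and spindle assembly, read 2624, 2624 and 2524 in vehicle and 362, 450 and 396 with AU2-94 at 24 h. At 72 h it read 2857, 2683 and 2898 in vehicle and 1936, 1712 and 1783 with the drug. The treated level thus moved from 15.5% to 64.4% of vehicle, a change of 2.05 ± 0.13 (adjusted p = 3.22e-12), and all 3 treated libraries stayed below all 3 vehicle libraries. TOP2A, the topoisomerase that untangles sister chromatids, went from 687, 665 and 730 at 24 h to 2567, 2598 and 2456 at 72 h with AU2-94, while vehicle read 3577, 3523 and 3512 and then 3293, 3710 and 3639. Its change was 1.87 ± 0.17 (adjusted p = 2.27e-09), from 19.6% to 71.6% of vehicle. The mitotic kinesin KIF20A (change 2.21) and GTSE1 (2.08), a microtubule-bound regulator of p53, had the other largest changes of the list by the rule used here.

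FOXM1, the factor that activates many of these genes, was itself among them. With AU2-94 it read 806, 955 and 959 at 24 h and 2203, 2007 and 2177 at 72 h, against 3447, 3589 and 3289 and then 3664, 3560 and 3608 in vehicle. The effect went from -1.93 to -0.76, a change of 1.16 ± 0.09 (adjusted p = 2.05e-10). CCNB1, which encodes cyclin B1, changed less, by 0.80 ± 0.09, from -1.34 to -0.54 (adjusted p = 1.82e-07). MKI67, the gene of the proliferation marker Ki-67, and BIRC5, which encodes survivin, were looked up after the values were seen. Their changes were 1.89 (adjusted p = 2.07e-14) and 1.53 (adjusted p = 1.08e-05).

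**Figure D2:**
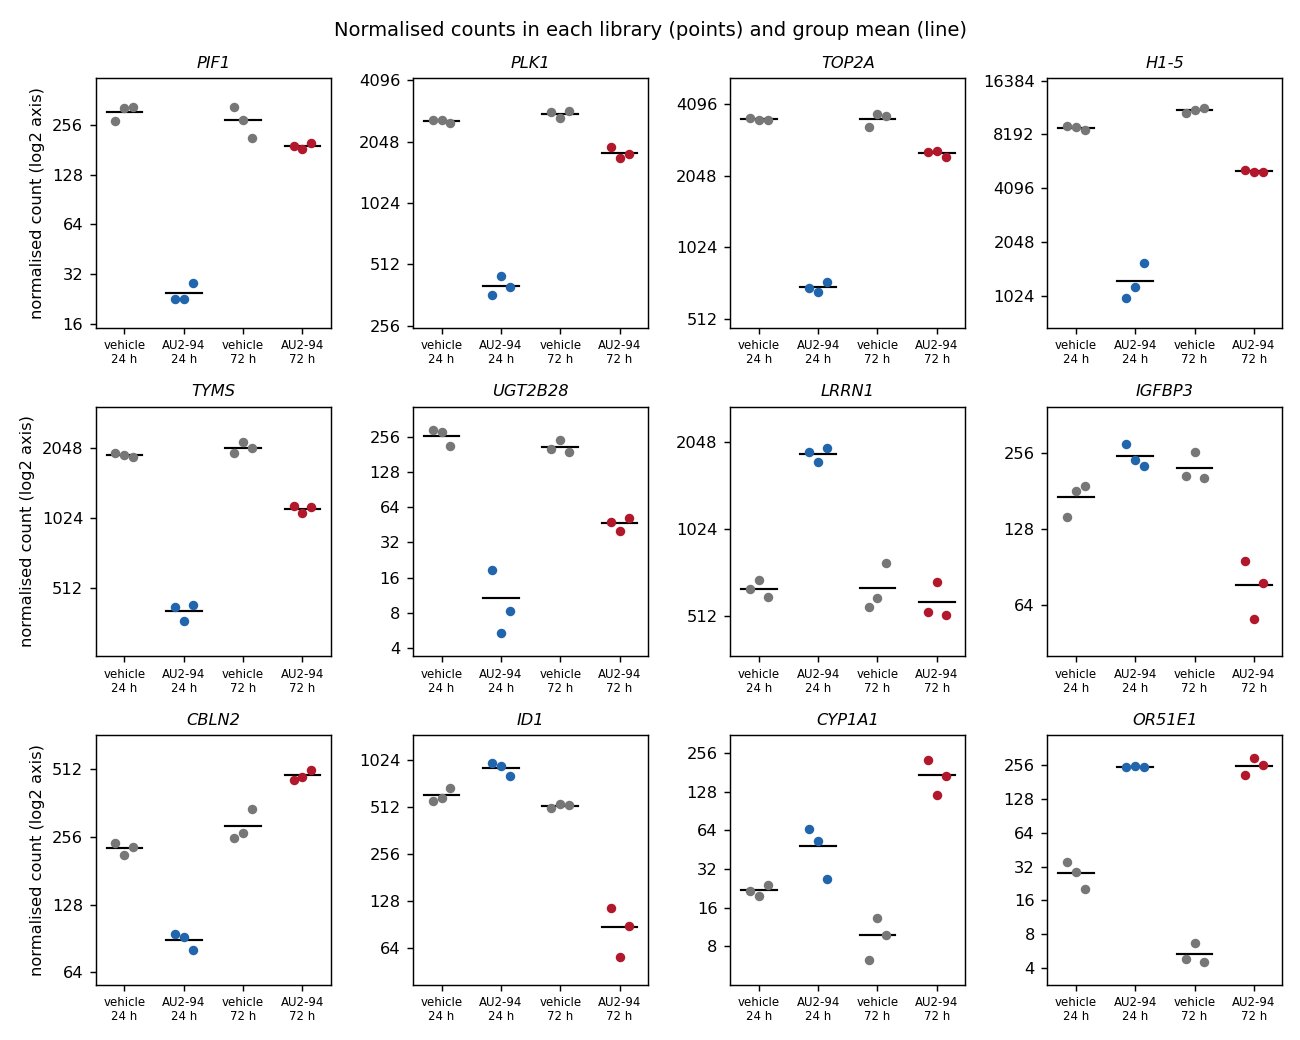
Normalised counts on a log2 axis in each of the 3 libraries (points) of vehicle and AU2-94 2 µM at 24 h and 72 h, with the group mean as a line, for 12 genes of the different courses. PIF1, PLK1, TOP2A, H1-5, TYMS and UGT2B28 rise toward vehicle at 72 h, ID1 falls below vehicle only at 72 h, and in OR51E1 the vehicle libraries fall while the treated ones stay level.

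Genes of DNA replication followed at smaller size. In a list of 50 genes of G1/S and replication, 33 (66%) had a change past the adjusted p toward higher and 0 toward lower. Over all genes tested the shares were 9.26% and 9.28%. Only 4 of the 50 were called, and the median effect went from -1.02 to -0.42. Claspin (CLSPN), an adaptor of the replication checkpoint, read 321, 342 and 341 with AU2-94 at 24 h and 879, 758 and 1026 at 72 h, against 1555, 1530 and 1498 and then 1431, 1527 and 1441 in vehicle. Its change was 1.45 ± 0.17 (adjusted p = 2.59e-07). TICRR, which helps origins to fire, changed by 1.38 ± 0.12 and PRIM1, the catalytic subunit of DNA primase, by 1.36 ± 0.26. TICRR moved from 30.3% to 77.9% of vehicle, and the 72 h effect of PRIM1 no longer passed the test (adjusted p = 0.096).

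Of 14 genes that make deoxynucleotides, 4 (28.6%) had a change past the adjusted p toward higher and 2 (14.3%) toward lower, against 9.26% and 9.28% over all genes tested, with a median change of 0.16. RRM2, the S-phase subunit of ribonucleotide reductase, changed by 1.61 ± 0.22 and stood at 16.3% and then 49.4% of vehicle. TYMS, which encodes thymidylate synthase, read 426, 371 and 432 with AU2-94 at 24 h and 1153, 1079 and 1149 at 72 h, against 1965, 1916 and 1884 and then 1955, 2178 and 2052 in vehicle (change 1.36 ± 0.12, adjusted p = 1e-09). ENOSF1 overlaps 39.9% of the TYMS exon bases on the opposite strand, and the strand setting of the counting is not given in the sources used here. TK1, thymidine kinase of the salvage route, changed by 1.09 ± 0.09 (adjusted p = 1.43e-10). RRM2B, a subunit induced by p53, went the other way, from 0.78 to -0.10 (change -0.87 ± 0.19, adjusted p = 0.00149).

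Replication-dependent histone genes, which are transcribed in S phase, faded less completely. Of 49 histone genes tested, 37 (75.5%) had a change past the adjusted p toward higher and 1 (2.04%) toward lower. Over all genes tested the shares were 9.26% and 9.28%. The median effect of the histone genes went from -1.90 to -0.94. There were 45 of them below vehicle past the adjusted p at 72 h and 44 at 24 h. The linker histone gene H1-5 read 9112, 8968 and 8635 in vehicle and 996, 1140 and 1562 with AU2-94 at 24 h, and 10804, 11190 and 11465 against 5190, 5028 and 5015 at 72 h. The change was 1.74 ± 0.13 (adjusted p = 8.47e-11), from 13.8% to 45.5% of vehicle. H2BC14 changed by 1.82 ± 0.20 and reached 40.8% of vehicle. The member past the adjusted p toward lower was H4C12, at 0 in 4 of the 12 libraries, and its change did not pass the test under 7 of 21 alternatives.

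Of 29 genes of homologous recombination and the Fanconi anaemia pathway, 19 (65.5%) had a change past the adjusted p toward higher and 1 (3.45%) toward lower. Over all genes tested the shares were 9.26% and 9.28%. The median effect of the 29 went from -1.39 to -0.34. FANCA, a core subunit of the Fanconi ubiquitin ligase, reached 91.9% of vehicle at 72 h from 29.8% at 24 h (change 1.62 ± 0.21, adjusted p = 1.05e-06). RAD54L, a motor protein of strand exchange, and BRIP1, a helicase that binds BRCA1, changed by 1.32 and 1.29. In the list of cyclin D, RB and E2F regulators 11 of 35 (31.4%) had a change toward higher and 1 (2.86%) toward lower. Its largest change was in E2F8, an atypical E2F that represses transcription, which read 65.9, 61.7 and 95 with AU2-94 at 24 h and 256, 187 and 266 at 72 h (change 1.84 ± 0.39, adjusted p = 0.000981).

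Among direct members of the targeted pathway, E2F1, CDK2 and CCND1 had changes past the adjusted p, each smaller than 1. E2F1 went from -1.04 to -0.61 (change 0.43 ± 0.11, adjusted p = 0.00463) and CDK2 from -1.07 to -0.56 (change 0.51 ± 0.12, adjusted p = 0.00268). CCND1, which encodes cyclin D1, was higher than vehicle at both times, 0.60 and then 0.33, with a change of -0.27 ± 0.07 (adjusted p = 0.00303, and 0.169 under quantile normalisation). The changes of RB1 (0.11 ± 0.11, adjusted p = 0.519), CDK4 (-0.22 ± 0.08, adjusted p = 0.0666) and CDK6 (1.15 ± 0.83, adjusted p = 0.367) did not pass the test. CDK6 varied between 31 and 185 normalised counts among the vehicle libraries at 24 h, which is wider than its difference from the treated libraries. CDK4 shares 44.2% of its exon bases with TSPAN31 on the opposite strand.

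The 6 cell-cycle lists together held 110 of the 273 genes that were lower at 24 h and faded, and 158 of the 273 stood in none of the 24 lists. In 245 of the 273, under 50% of the 24 h effect was left at 72 h, yet 131 were still past the adjusted p at 72 h. The treated libraries moved more between the harvests than the vehicle libraries in 258 of them, with a median of 1.37 against -0.023. Between the harvests 522 genes (3.1%) were called higher and 208 (1.23%) lower in treated cells, and 33 (0.196%) higher and 140 (0.831%) lower in vehicle cells. On the adjusted p alone the shares were 14.3% and 14.2% in treated cells and 3.85% and 3.64% in vehicle cells. Of the 85 mitotic genes, 83 rose past the adjusted p in treated cells and 1 in vehicle cells, and of the 49 histone genes 43 and 11.

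Outside the cell cycle, the 12 tested genes of a list of UGT2B enzymes and androgen metabolism had a median effect of -1.02 at 24 h and -0.49 at 72 h, and 7 were lower than vehicle past the adjusted p at each time. UGT2B28 read 290, 280 and 215 in vehicle and 18.8, 5.43 and 8.25 with AU2-94 at 24 h, and 201, 241 and 190 against 47.8, 40 and 52 at 72 h. The treated level was 4.13% and then 22.1% of vehicle, a change of 2.47 ± 0.39 (adjusted p = 2.23e-05). UGT2B11 (change 1.61 ± 0.19) and UGT2B15 (1.36 ± 0.12) moved likewise and stood at 14.7% and 30.9% of vehicle at 72 h. UGT2B15 and UGT2B17 share a stretch of 551 bases at 99.3% identity and UGT2B11 and UGT2B10 one of 312 bases at 98.1%, so reads could be split between them. Of the 12 genes, 4 (33.3%) had a change past the adjusted p toward higher and 1 (8.33%) toward lower, against 9.26% and 9.28% over all genes tested.

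UGT8, which makes galactosylceramide, was at 222, 253 and 182 in vehicle and 10.7, 12.4 and 14.7 with AU2-94 at 24 h. At 72 h it was at 393, 392 and 380 in vehicle and 201, 185 and 207 with the drug, and the effect went from -4.02 to -0.97 (change 3.04 ± 0.40, adjusted p = 1.24e-06). The treated level of UGT8 rose by 3.88 between the harvests, and the vehicle level moved by 0.84 without passing the test. In ABCA1, the cholesterol exporter, the vehicle level fell, from 145, 45.1 and 122 to 36.6, 27.5 and 35.1. The treated libraries rose from 16.3, 23.4 and 14.8 to 40.3, 61.8 and 48 (change 2.89 ± 0.49, adjusted p = 6.85e-05). ITIH4, a secreted protease inhibitor of plasma, had a change of 2.97 ± 0.59, and 70.3% of its exon bases are shared with another gene model on the same strand.

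The promoters of genes with each course were searched for 3 motifs on both strands, in RefSeq promoters that run from 250 bases before to 50 after the start (GRCh38.p14). The motifs were the E2F site (TTCCCGC or TTGGCGC), the CHR (TTTGAA or TTCGAA) and the CCAAT box. PIF1 and UGT8, which faded, and ID1, which fell late, are shown with the matches in capitals. They head their courses among genes with a mean of at least 50 normalised counts. PIF1 (chr15:64825598-64825897, minus strand) holds a CHR at -20 and CCAAT boxes at -148 and -45. UGT8 (chr4:114598152-114598451, plus strand) holds only a CHR, at -188. ID1 (chr20:31605039-31605338, plus strand), which fell late, holds a CHR at -74 and a CCAAT box at -84.
PIF1: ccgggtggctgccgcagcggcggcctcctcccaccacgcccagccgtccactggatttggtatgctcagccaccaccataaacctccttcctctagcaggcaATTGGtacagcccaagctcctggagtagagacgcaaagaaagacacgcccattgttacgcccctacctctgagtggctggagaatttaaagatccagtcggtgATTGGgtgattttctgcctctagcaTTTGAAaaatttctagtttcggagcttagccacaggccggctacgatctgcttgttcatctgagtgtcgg
UGT8: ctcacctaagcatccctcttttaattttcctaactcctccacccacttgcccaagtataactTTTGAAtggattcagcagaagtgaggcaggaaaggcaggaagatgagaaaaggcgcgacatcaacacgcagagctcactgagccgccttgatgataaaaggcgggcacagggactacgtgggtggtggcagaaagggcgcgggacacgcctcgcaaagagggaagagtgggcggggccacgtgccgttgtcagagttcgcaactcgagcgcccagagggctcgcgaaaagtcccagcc
ID1: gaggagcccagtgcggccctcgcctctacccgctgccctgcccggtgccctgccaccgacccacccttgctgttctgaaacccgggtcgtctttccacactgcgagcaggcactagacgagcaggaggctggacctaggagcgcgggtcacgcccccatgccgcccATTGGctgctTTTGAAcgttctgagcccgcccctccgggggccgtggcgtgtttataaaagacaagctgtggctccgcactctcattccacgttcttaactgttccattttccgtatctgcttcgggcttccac
Of the 273 genes that were lower at 24 h and faded, 197 had a promoter in the table, and 38.1% of these held a CHR, 57.4% a CCAAT box, 26.9% both and 24.9% an E2F site. Among all 27305 promoters the shares were 16.6%, 35.7%, 6.58% and 9.33%, and among 11872 promoters of genes tested 11.2%, 36.9%, 4.85% and 14.3%. In the 72 promoters of mitotic genes 70.8% held a CHR and 23.6% an E2F site, whereas in the 43 of G1/S and replication genes 6.98% held a CHR and 58.1% an E2F site. Of the 72 promoters of genes that became higher late, 15.3% held a CHR and 6.94% an E2F site. A match is a description of the sequence and not evidence of binding.

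Genes that AU2-94 raised at 24 h and that lost the difference were fewer. LRRN1, a leucine-rich repeat membrane protein, read 631, 682 and 593 in vehicle and 1899, 1752 and 1955 with AU2-94 at 24 h, and 547, 589 and 781 against 528, 673 and 515 at 72 h. The groups stood apart at 24 h and overlapped at 72 h, which the choice of a faded gene in part fixes. The change was -1.71 ± 0.17 (adjusted p = 6.3e-09). GPER1, a G-protein-coupled oestrogen receptor, went from 347% to 82.3% of vehicle, a change of -2.06 ± 0.29 (adjusted p = 3.44e-06). THBS1, the matrix glycoprotein thrombospondin-1, read 396, 731 and 423 with AU2-94 at 24 h and 143, 112 and 163 at 72 h, against 108, 61 and 138 and then 61, 87 and 120 in vehicle (change -1.67 ± 0.39, adjusted p = 0.00219). BMX, a non-receptor tyrosine kinase, kept a part of its rise, at 515% and then 206% of vehicle. In 37 of the 45 genes of this class the treated libraries moved more than the vehicle libraries.

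In 63 genes the effect changed sign. FOS, an immediate early gene that encodes a subunit of AP-1, read 24.1, 7.02 and 15.1 in vehicle and 229, 97.3 and 47.9 with AU2-94 at 24 h, and 182, 289 and 235 against 15.5, 33.9 and 24.6 at 72 h. The effect went from 2.81 to -3.24, a change of -6.05 ± 1.00 (adjusted p = 4.12e-05). The groups did not overlap at either time, which the choice of a gene past the adjusted p at both times in part fixes. The vehicle libraries moved more (3.97) than the treated ones (-2.08). IGFBP3, which binds insulin-like growth factors, went from 278, 241 and 227 to 95.5, 56.2 and 78.0 with AU2-94, against 142, 182 and 190 and then 207, 259 and 203 in vehicle (change -2.09 ± 0.24, adjusted p = 1.09e-07). SMAD9, a Smad protein, went from 150% to 63.1% of vehicle (change -1.24 ± 0.14).

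CBLN2, a secreted cerebellin that organises synapses, turned the other way. It read 242, 212 and 231 in vehicle and 94.7, 92.1 and 80.3 with AU2-94 at 24 h, and 253, 268 and 341 against 459, 476 and 510 at 72 h. The effect went from -1.35 to 0.75, a change of 2.11 ± 0.17 (adjusted p = 3.05e-10). TGM3, a transglutaminase, went from 70.3% to 317% of vehicle (change 2.13 ± 0.25, adjusted p = 1.92e-07), but 94.8% of its exon bases are shared with another gene model on the same strand. SPTBN5, a spectrin chain, and LAMA5, a laminin chain of basement membranes, had changes of 1.73 ± 0.23 and 1.25 ± 0.17. Over the 54 genes that turned from lower to higher, the median effect was -0.70 and then 0.71, and treated libraries moved more than vehicle in 47.

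Among genes that fell late and had a mean of at least 50 normalised counts, ID1 and ID3 had the largest changes. The ID genes encode partners that hold basic helix-loop-helix factors off DNA and are transcribed in response to bone morphogenetic proteins. ID1 read 560, 591 and 685 in vehicle and 986, 943 and 807 with AU2-94 at 24 h, and 504, 540 and 530 against 116, 56.3 and 88.9 at 72 h. The treated libraries lay above vehicle at 24 h without passing the test (adjusted p = 0.062) and below vehicle at 72 h, a change of -3.21 ± 0.33 (adjusted p = 2.09e-08). ID3 read 720, 663 and 820 against 819, 831 and 708 at 24 h and 777, 798 and 811 against 269, 182 and 227 at 72 h (change -1.93 ± 0.24, adjusted p = 3.93e-07). ID2, looked up after the values were seen, changed by -1.10 ± 0.28 (adjusted p = 0.00458), from -0.0059 to -1.10. Both ID1 and ID3 were members of the list of immediate early genes. In that list 9 of 30 (30%) had a change past the adjusted p toward lower and 1 (3.33%) toward higher. Over all genes tested the shares were 9.28% and 9.26%.

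Among genes that became higher late, CYP1A1, a target of the aryl hydrocarbon receptor, read 21.4, 19.8 and 24 in vehicle and 65.5, 53.3 and 26.7 with AU2-94 at 24 h, and 6.24, 13.2 and 9.7 against 226, 120 and 169 at 72 h. The effect was 1.03 at 24 h (adjusted p = 0.083) and 4.02 at 72 h, a change of 2.98 ± 0.64 (adjusted p = 0.000993). MAP3K12, a kinase upstream of JNK, went from 77.9% to 328% of vehicle (change 2.02 ± 0.29) and MMP24, a membrane-bound matrix metalloproteinase, from 143% to 529% (change 1.93 ± 0.35). TSC22D3, a glucocorticoid- and androgen-induced leucine zipper protein, went from 79.3% to 203% (change 1.4 ± 0.23). The 144 genes of this class were divided in what moved, with treated libraries moving more in 69 and vehicle libraries in 75.

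In the 14 genes that were higher at both times and more so at 72 h, the vehicle libraries moved more in 13, with a median movement of -1.56 in vehicle and 0.30 in treated cells. OR51E1, an olfactory receptor expressed in prostate, read 247, 249 and 248 with AU2-94 at 24 h and 208, 293 and 254 at 72 h. Vehicle read 35.1, 28.5 and 20.3 and then 4.79, 6.75 and 4.58, so the effect went from 3.14 to 5.31 (change 2.17 ± 0.33, adjusted p = 1.05e-05) while the treated level did not move beyond its spread. The 72 h vehicle values lie near the floor of 3. The size of the change is therefore unsure, and it ran from 1.42 to 2.27 over the other processing settings. RIPOR2, a regulator of cell polarity and migration, fell in vehicle from 511, 505 and 477 to 200, 198 and 225 and stood at 857, 950 and 988 and then 1126, 1187 and 1038 with AU2-94 (change 1.52 ± 0.16). ANGPT2, the TIE2 ligand angiopoietin-2, had a change of 2.24 ± 0.58, with vehicle at 27.4, 43.7 and 30.6 and then 10.7, 7.54 and 14.7.

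**Figure D3:**
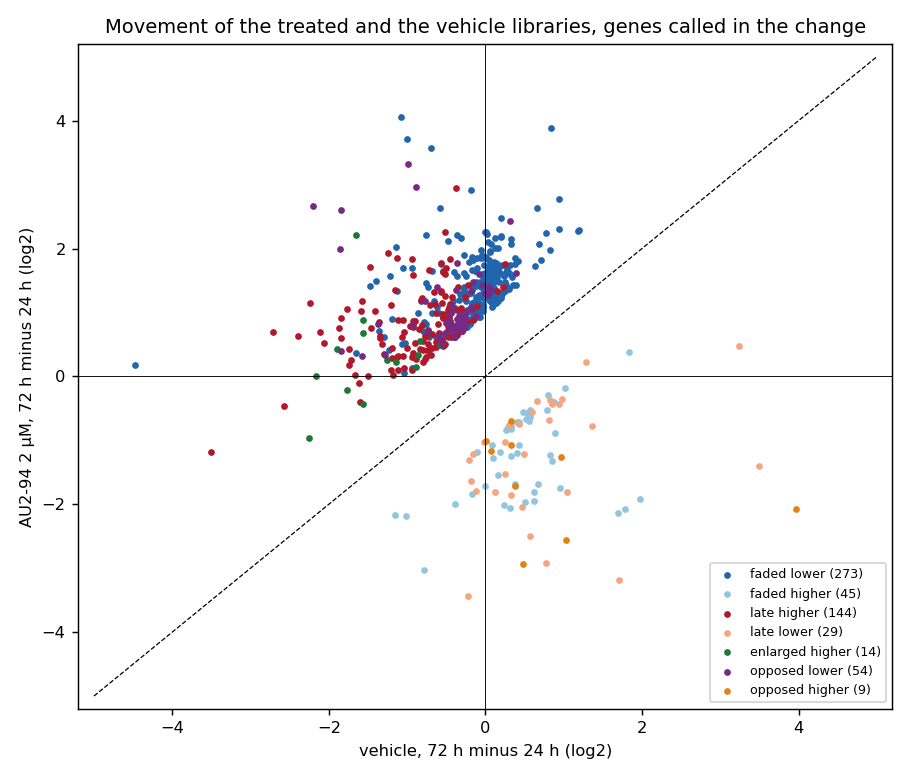
Movement between 24 h and 72 h of the vehicle libraries (horizontal axis) and of the AU2-94 2 µM libraries (vertical axis), as log2 differences, for the genes called in the change of effect, coloured by course. The 273 genes that were lower at 24 h and faded lie in a vertical band near 0 in vehicle, whereas genes that became higher late spread to the left, where vehicle fell.

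Outside the cell cycle, the changes of whole lists were smaller. Ribosomal protein genes moved together, and 75 of 77 (97.4%) had a change past the adjusted p toward lower and 0 toward higher, with 0 called at a log2 difference of 1. Their median effect went from 0.33 to -0.14, and 71 were higher than vehicle past the adjusted p at 24 h and 43 lower at 72 h. RPL13A read 37357, 39045 and 37393 against 54015, 55267 and 58273 at 24 h and 45255, 45895 and 45286 against 42386, 42484 and 42743 at 72 h (change -0.65 ± 0.05, adjusted p = 3.55e-11). It has processed pseudogenes of near-identical sequence, and RPS19, for which the same search found none listed, changed by -0.64 ± 0.07. The median change of the list was -0.48, and -0.31 under quantile normalisation.

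Over all genes tested, 9.28% had a change past the adjusted p toward lower and 9.26% toward higher. Of 75 nuclear genes of the respiratory chain 45 (60%) had a change toward lower and 0 toward higher, with a median effect of 0.10 and then -0.21. NDUFS7, a subunit of complex I, had the largest (-0.58 ± 0.11). The 13 mitochondrial genes of the chain had a median change of -0.08, which turned to 0.03 under quantile normalisation. Among 59 genes of ribosome biogenesis and MYC targets, 21 (35.6%) had a change toward lower and 2 (3.39%) toward higher. RRS1, a ribosome assembly factor, was at -0.54 ± 0.10. In 33 genes of cholesterol and fatty acid synthesis 12 (36.4%) had a change toward lower and 0 toward higher, led by the sterol carrier STARD4 at -0.70 ± 0.19.

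Androgen response genes did not move as a block. Of 66 tested, 11 (16.7%) had a change past the adjusted p toward higher and 20 (30.3%) toward lower. Over all genes tested the shares were 9.26% and 9.28%. The median effect of the 66 was 0.30 and then 0.14. KLK3 rose further, from 23132, 24802 and 22731 in vehicle against 29519, 32036 and 31370 with AU2-94 at 24 h to 20972, 20799 and 19802 against 42554, 47315 and 45775 at 72 h (change 0.74 ± 0.07, adjusted p = 7e-09). KLK2 changed by 0.54 ± 0.12 and the prostatic acid phosphatase gene ACP3 by 0.69 ± 0.16. TMPRSS2, the protease gene fused to ERG in many prostate cancers, was at 211% and then 291% of vehicle (change 0.46 ± 0.10, adjusted p = 0.0012). In all 4 the vehicle level fell past the adjusted p between the harvests (movements of -0.20 to -0.44), while the treated level rose past it in KLK3 (0.55) and not in KLK2 (0.11), TMPRSS2 (0.13) or ACP3 (0.28).

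Of the 16 luminal markers, 4 (25%) had a change toward higher and 8 (50%) toward lower, against 9.26% and 9.28% over all genes tested. Their median change of -0.18 turned to 0.07 under quantile normalisation. The 4 that changed toward higher were again KLK3, KLK2, ACP3 and TMPRSS2. In 35 genes of the integrated stress and unfolded protein responses 13 (37.1%) had a change toward lower and 2 (5.71%) toward higher. TRIB3, a pseudokinase induced by ATF4, went from 98.1% to 58.5% of vehicle (change -0.74 ± 0.12, adjusted p = 4.84e-05), and ASNS, which encodes asparagine synthetase, from 61% to 38.2% (change -0.69 ± 0.18). Hypoxia targets stayed raised in the median, with median effects of 0.63 and 0.59, though the median change per gene was -0.25. Members higher than vehicle past the adjusted p numbered 35 at 24 h and 28 at 72 h. Of 43, 4 (9.3%) had a change toward lower, near the 9.28% over all genes tested, and 1 (2.33%) toward higher, against 9.26%. Of 34 p53 targets 5 (14.7%) had a change toward lower and 2 (5.88%) toward higher, shares near the 9.28% and 9.26% over all genes tested.

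In 44 interferon and antigen presentation genes 3 (6.82%) had a change in each direction, also near the shares over all genes. OAS3, an antiviral oligoadenylate synthetase, was lowered to 29.8% of vehicle at 24 h and was at 75.4% at 72 h (change 1.34 ± 0.19, adjusted p = 6.47e-06). Of 41 genes of extracellular matrix and adhesion 10 (24.4%) had a change toward higher and 3 (7.32%) toward lower, against 9.26% and 9.28% over all genes tested. COL7A1, the collagen of anchoring fibrils, went from 96.8% to 286% of vehicle (change 1.64 ± 0.40, adjusted p = 0.00353). Of 49 lysosome and autophagy genes 4 (8.16%) had a change toward higher, among them the autophagy kinase ULK1 (0.70 ± 0.10), and 7 (14.3%) toward lower, such as LIPA (-0.48 ± 0.11), against 9.26% and 9.28% over all genes tested. Their median of -0.05 turned to 0.01 with equal totals. Of 17 neuronal and neuroendocrine genes 3 (17.6%) had a change toward higher, SYT4 among them (0.60 ± 0.09), and 0 toward lower, against the same shares over all genes. Of 6 stromal, endothelial and immune markers tested, VWF had a change toward higher (1.46 ± 0.29) and ACTA2 toward lower, and neither of 2 basal markers passed the test. The change of ACTA2 missed the test under 5 of 20 alternatives, which were the fit of the 4 groups alone and those without vehicle 24 h replicate 1, vehicle 72 h replicate 3 or AU2-94 72 h replicate 1 or 2.

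Whether this course differed between agents was tested as the movement from 24 h to 72 h with AU2-94 at 2 µM minus that with another agent at the same dose, in which vehicle cancels. The comparisons below share the AU2-94 2 µM libraries. Against atirmociclib 2 µM, 28 genes (0.166%) were called higher and 61 (0.362%) lower, and 1.58% and 2.94% passed the adjusted p alone. Against ribociclib 2 µM, 2 genes were called in each direction (0.0119% each), and 12 (0.0712%) and 19 (0.113%) passed the adjusted p. Against AU2-94 at 1 µM, 1 gene (0.00593%) was called higher and 0 (0%) lower, and 62 (0.368%) and 2 (0.0119%) passed the adjusted p alone. At an unadjusted p of at most 0.05 there were 1519 genes against ribociclib and 1359 against AU2-94 1 µM.

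The mitotic list faded in every arm. Against the same vehicle libraries its median change was 1.37 with AU2-94 2 µM, 1.04 with atirmociclib 2 µM, 1.14 with ribociclib and 0.82 with AU2-94 1 µM. For G1/S and replication the medians were 0.63, 0.64, 0.57 and 0.22. Of the 85 mitotic genes, 24 moved up more with AU2-94 than with atirmociclib 2 µM past the adjusted p and 1 less. The other 60 did not pass the test, and the median difference was 0.33. Against ribociclib 0 of the 85 passed in either direction. PTTG1, which encodes securin, the inhibitor of sister chromatid separation, read 374, 386 and 410 at 24 h and 1087, 966 and 1164 at 72 h with AU2-94. With atirmociclib 2 µM it read 634, 445 and 485 and then 411, 415 and 390, whereas with 1 µM of it the level rose from 373, 393 and 407 to 585, 552 and 638. With ribociclib it read 408, 392 and 348 and then 738, 1083 and 831. The difference in movement was 1.80 ± 0.15 from atirmociclib 2 µM (adjusted p = 4.23e-09) and 0.26 from ribociclib (95% interval -0.049 to 0.573, adjusted p = 0.658). PLK1 (0.65 ± 0.13) and FOXM1 (0.65 ± 0.09) also moved further than with atirmociclib 2 µM, but PLK1 missed the test in a fit of the groups compared alone (adjusted p up to 0.0553).

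Some S-phase genes moved the other way. CLSPN rose more with atirmociclib, from 70.3, 55.8 and 53.5 to 413, 323 and 335, so that the difference was -1.16 ± 0.17 (adjusted p = 5.19e-05), although at 72 h it stayed below the 879, 758 and 1026 of AU2-94. H1-5 likewise rose from 188, 219 and 192 to 1224, 1318 and 1420 with atirmociclib 2 µM, a difference of -0.65 ± 0.13 (adjusted p = 0.00265), which missed the test in the fit of those groups alone (0.0762). Of the 49 histone genes, 15 moved up more with AU2-94 and 3 less. Of the 50 G1/S and replication genes 1 moved up more and 5 less.

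ID1, ID3, TGM3 and PAG1 were the genes called against ribociclib, and their values against atirmociclib stand beside these. ID1 read 767, 827 and 788 at 24 h and 226, 393 and 207 at 72 h with ribociclib, and 860, 676 and 813 and then 424, 196 and 186 with atirmociclib 2 µM. At 2 µM AU2-94 ended lowest, at 56.3 to 116, but atirmociclib at 1 µM, below its own 2 µM level, also reached 61.6, 75.8 and 87.3. The difference in movement was -1.84 from ribociclib (adjusted p = 0.00678) and -1.79 from atirmociclib (adjusted p = 0.000866), each ± 0.33. ID3 differed by -1.41 and -1.38. TGM3 rose more with AU2-94, by 1.46 ± 0.25 than with ribociclib and by 1.00 ± 0.25 than with atirmociclib, and PAG1, a membrane adaptor that recruits the kinase CSK, by 1.43 ± 0.29 and 1.2 ± 0.29. In a fit of the 4 groups compared alone, 0 genes were called against ribociclib and 16 higher and 34 lower against atirmociclib. Without AU2-94 2 µM 24 h replicate 3 the count against ribociclib was 9.

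Between the doses of AU2-94, H1-5 was the gene called, at 2302, 2087 and 2441 with 1 µM at 24 h and 4672, 4691 and 4931 at 72 h, against 996, 1140 and 1562 and then 5190, 5028 and 5015 with 2 µM. The difference in movement was 1.00 ± 0.13 (adjusted p = 0.000326), which lies at the threshold for a call and fell below it, to 0.99, under quantile normalisation and with equal totals. Of 49 histone genes 18, of 85 mitotic genes 16 and of 50 G1/S genes 10 moved up more with 2 µM past the adjusted p and 0 moved up less, so most members of each list did not pass. ID1 read 56.4, 69.5 and 79.7 at 72 h with 1 µM, and its movement differed by 0.23 (95% interval -0.45 to 0.90, adjusted p = 0.924).

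**Figure D4:**
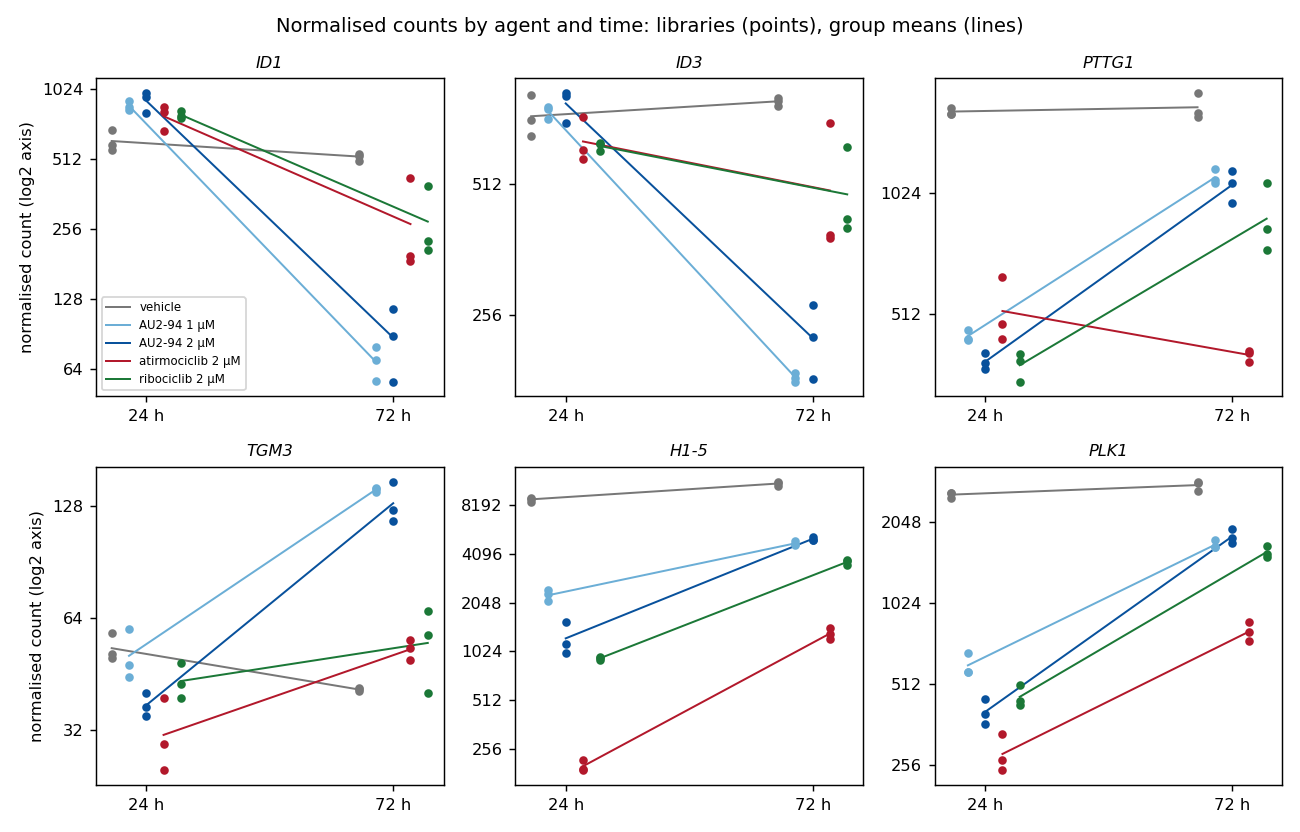
Normalised counts on a log2 axis of ID1, ID3, PTTG1, TGM3, H1-5 and PLK1 at 24 h and 72 h with vehicle, AU2-94 at 1 and 2 µM, atirmociclib 2 µM and ribociclib 2 µM, with 3 libraries (points) and the group mean (lines). ID1 falls with every inhibitor shown and furthest with AU2-94, and PTTG1 rises with AU2-94 and ribociclib but not with atirmociclib 2 µM.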

How the data were processed

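RNA from LNCaP cells was sequenced by the authors as total RNA libraries in paired reads, processed with nf-core/rnaseq, aligned to GRCh38 with STAR (v2.6.1d) and analysed with DESeq2. The authors deposited normalised counts (a read-scaled signal, not whole counts) for 29872 genes (29856 with a symbol). The annotation release, counter and strand setting are not given in the sources used here. Only 15.5% to 47.4% of values under 10 lay at whole multiples of the smallest step (tolerance 0.01), so reads were not recovered and no count test was run.

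Groups came from the sample labels. log2(normalised count + 1) was fitted with limma 3.58.1 in R 4.3.3 (lmFit, contrasts.fit, eBayes with trend) over all 36 libraries in 12 groups, for 16850 genes with at least 10 in at least 3 libraries, with Benjamini-Hochberg adjustment within each contrast. This scale understates changes of low genes. Errors after ± are standard errors, and p-values measure the spread between these culture replicates. Levels at or under 3 were taken as the floor. Depth per library is known only as normalised totals.

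Named genes were, per class and direction, the 5 largest changes with a mean of at least 50, up to 3 per list past the adjusted p, genes the study names for LNCaP (1 of which is not reported here), and up to 3 per direction called in the course against another agent. The members and the 24 lists were chosen with earlier results of these data known. Gene positions, shared exon bases and sequence stretches shared with other genes (100 bases or more at 98% identity) came from GENCODE release 44 with BLAST, and promoters from RefSeq. The steps were tested on simulated data. The labels give replicate numbers as batches. The main fit did not pair the libraries by number, and a replicate block was used only as an alternative. Deviations from the group mean correlated at 0.0023 on average between same-numbered libraries (-0.046 to 0.047 over 18 pairs), against -0.0011 for different numbers.

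Each result was recomputed with another pseudocount (0.5 or 8), another filter on low values, quantile normalisation or equal totals, the replicate block, no trend, the compared groups alone, and each library left out.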

Additional observations from a re-analysis of the deposited data

Results flagged for a closer look

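The movement from 24 h to 72 h differed between AU2-94 2 µM and another agent or dose, by the adjusted p of the difference itself, in 37 comparisons. These came from 117 named genes set against each of the other arms. Some genes were named because they were called in these same comparisons, so the count is in part fixed by that choice. Over all genes tested, 1.58% passed toward higher and 2.94% toward lower against atirmociclib 2 µM. The shares were 0.0712% and 0.113% against ribociclib 2 µM, and 0.368% and 0.0119% against AU2-94 1 µM. The differences are in log2 units, AU2-94 2 µM minus the other arm, and the 3 sets share the AU2-94 2 µM libraries.

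Against atirmociclib 2 µM, AU2-94 moved higher in 13 genes. Cell-cycle genes among them were PTTG1 (1.80), GTSE1 (0.74), FOXM1 (0.65), PLK1 (0.65), TYMS (0.56) and CCNB1 (0.44). The others were ENSG00000287064 (1.51), NRGN (1.45), PAG1 (1.2), TGM3 (1.00), ASNS (0.77), OAS3 (0.70) and CBLN2 (0.69). It moved lower in 12 genes: BMX (-1.5), ID1 (-1.79), ID3 (-1.38), ACTA2 (-1.24), the S-phase genes CLSPN (-1.16), H2BC14 (-0.74) and H1-5 (-0.65), POTEM (-0.66), TUBB3 (-0.63), TMPRSS2 (-0.40), MT-ATP6 (-0.27) and ENSG00000290700 (-1.60). H2BC14 and H1-5 do not stand for their list, since of 49 histone genes 15 moved up more with AU2-94 and 3 less. POTEM shares 2204 bases at 99.6% identity with POTEG, and ASNS shares 49.3% of its exon bases with a gene model on the same strand.

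NRGN, a calmodulin-binding protein, read 35, 39.1 and 36.9 and then 95.8, 82.5 and 113 with AU2-94, and 30.5, 39.7 and 45.9 and then 32.9, 36.4 and 38.5 with atirmociclib 2 µM. It rose with atirmociclib 1 µM, from 40.8, 34.8 and 32.8 to 65.4, 70.7 and 57.1. With ribociclib 2 µM it rose from 32.4, 40.7 and 34.6 to 66.8, 54.5 and 61.3. BMX read 201, 248 and 239 and then 159, 158 and 158 with AU2-94, and rose from 93.8, 137 and 92 to 208, 204 and 214 with atirmociclib 2 µM. With atirmociclib 1 µM BMX read 152, 140 and 116 and then 173, 162 and 156.

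Against ribociclib 2 µM the differences were 1.46 in TGM3, 1.43 in PAG1, -1.84 in ID1 and -1.41 in ID3. Against AU2-94 1 µM all 8 were higher with 2 µM: H1-5 (1.00), H2BC14 (0.95), CLSPN (0.83), PLK1 (0.68), TYMS (0.65), TICRR (0.59), E2F1 (0.53) and TK1 (0.48).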

How the results depend on the processing

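With the replicate block, which uses the pairing by number, 499 genes were called higher and 93 lower in the change of effect, and MT-ATP6 was the named gene that missed the test with it. Leaving out each library in turn gave 457 to 545 higher and 78 to 97 lower. No change of a gene named here reversed under these alternatives. Calls toward higher made up 72.1% under quantile normalisation and 80.4% to 91.0% elsewhere.

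With a pseudocount of 8, 221 genes were called higher at 24 h and 316 at 72 h, and between harvests 122 were lower in treated and 80 in vehicle cells. Without the filter, 56 were higher in vehicle, 50 fell late, and 7 were called against ribociclib and 3 against AU2-94 1 µM. With a mean of at least 100, fewer genes were tested: the change gave 283 and 28, the effects 93 and 303 at 24 h and 131 and 46 at 72 h, treated cells 237 and 43, vehicle 7 and 34, atirmociclib 13 and 27, AU2-94 1 µM 3, and the classes 16 (raised, then faded), 49 (late higher), 7 (late lower) and 4 (higher to lower). Under quantile normalisation 159 changes were lower, the 72 h effect gave 332 and 218, these classes held 72, 89, 50 and 18, and 0 genes were called against AU2-94 1 µM, as with equal totals. Fitting only the groups compared gave 16 and 34 against atirmociclib, 0 against ribociclib and 4 against AU2-94 1 µM, and in that fit the adjusted p was also missed by ID1, ID3, TGM3 and PAG1 against ribociclib, by TK1 (up to 0.0801), TICRR, H2BC14 and E2F1 against AU2-94 1 µM, and by PLK1, H1-5, POTEM (0.099), ASNS (0.102), PAG1 (0.0587) and 7 others among the named genes against atirmociclib. The cause was not tested.

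Leave-one-out ranges were 0 to 8 against AU2-94 1 µM (8 without its 24 h replicate 2, 7 without AU2-94 2 µM 24 h replicate 3, 0 without its 72 h replicate 1 or AU2-94 2 µM 24 h replicate 1 or 2 or 72 h replicate 1), 3 to 9 against ribociclib, 17 to 33 higher against atirmociclib (17 without AU2-94 2 µM 72 h replicate 2), 9 to 14 enlarged (9 without vehicle 24 h replicate 1 or 3) and 20 to 31 higher in vehicle (20 without its 72 h replicate 2). Without at least 1 library, the adjusted p was missed by PAG1 against ribociclib, by CLSPN, PLK1, E2F1, H2BC14 and TICRR against AU2-94 1 µM, and by TGM3, CBLN2, GTSE1, H2BC14, OAS3, TMPRSS2, ACTA2, MT-ATP6 and ENSG00000290700 against atirmociclib. Depth limits genes near the floor most.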

Other observations

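SPRY4, which encodes a feedback inhibitor of receptor tyrosine kinase signalling and was singled out after its values were seen, changed sign with AU2-94. It read 19.8, 13.6 and 14.7 in vehicle and 84.6, 45.8 and 50.4 with AU2-94 2 µM at 24 h, and 31.7, 30.6 and 38.7 against 11.1, 5.76 and 11.4 at 72 h. The change of effect was -3.59 ± 0.52 (adjusted p = 6.04e-06), from 1.81 to -1.78. With atirmociclib 2 µM SPRY4 read 50.5, 23.7 and 39.9 at 24 h and 43.4, 64.3 and 37.6 at 72 h, and the difference in movement was -2.93 (adjusted p = 0.000484). With atirmociclib 1 µM it was lower at 72 h, at 31.9, 45.7 and 26.2 and then 18.8, 19.1 and 18.9. Against ribociclib the difference in movement was -2.07 (adjusted p = 0.0875).

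At 72 h, the libraries of atirmociclib at 1 µM read lower in the ID genes than those at 2 µM, which was singled out after the values were seen. ID3 read 163, 212 and 205 at 1 µM and 710, 391 and 384 at 2 µM, and ID2 read 61.6, 73.0 and 57.5 at 1 µM and 168, 98.3 and 164 at 2 µM. The libraries of the doses did not overlap in either gene. The 2 µM libraries were spread more widely, with an SD of 186 in ID3 and 39.1 in ID2, against 26.7 and 8.05 at 1 µM. This difference between doses was not tested.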
